A study of Homo sapiens with 6 samples.

Results

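The 7 genes described here are the 3 human Aurora kinases (AURKA, AURKB and AURKC) and the 4 proteins that activate or position them (TPX2, INCENP, BIRC5 and CDCA8). They are 7 of the 60483 rows of the gene count table, found through their Ensembl identifiers, and each identifier gave 1 row. AURKC was selected on its counts in the comparison between HAP1 and HELLS KO cells, and the other 6 were added as its relatives and cofactors with their values known. Their differences between the genotypes are therefore given as a description, with the standard error of the fit and with no test.

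RNA-seq was carried out on total RNA of HAP1 (C631) cells, a near-haploid human line derived from a chronic myelogenous leukemia, and of HELLS KO cells made from that line. HELLS is a chromatin remodeler of the SNF2 family with a role in DNA methylation, and the comparison asks what its loss does to transcription. The HELLS KO line was a purchased clone with a 1-base insertion in exon 3 of HELLS, and both lines were in normal growth with no agent added. Each genotype had 3 libraries, which the study's methods call biological replicates, and replicate 3 of both genotypes carries a batch label. Because each genotype is 1 line, the loss of HELLS and any other property of the clone cannot be told apart. In bulk RNA, more RNA per cell and more cells that hold a transcript cannot be told apart either.

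Aurora kinases are serine/threonine kinases that drive cell division. Aurora A acts at centrosomes and on the spindle, where TPX2 binds and activates it. Aurora B is the catalytic subunit of the chromosomal passenger complex, which corrects faulty attachments of chromosomes to the spindle and directs the end of division. INCENP is the scaffold of that complex and activates the kinase, while survivin (BIRC5) and borealin (CDCA8) bring it to centromeres. Aurora C is a close relative of Aurora B that can take its place in the same complex, and it is known from the meiotic divisions of sperm and egg precursors. Most somatic tissues hold little of it.

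The close relation is visible in the coding sequences of the GRCh38 annotation (GENCODE release 44). AURKB and AURKC were identical at 77.2% of 905 aligned coding bases, against 65.4% of 904 for AURKA and AURKC and 66.1% of 1023 for AURKA and AURKB. The longest run of bases that AURKB and AURKC shared was 29 bases long, and it is shown because reads of the 2 genes are hardest to tell apart there. The shared run is in capitals with its flanks in lower case, each read 5′ to 3′ on the coding strand and joined across an exon junction. The AURKB run is at coding bases 676 to 704 (chr17:8205373-8206501 on the minus strand, hg38), and the AURKC run is at coding bases 574 to 602 (chr19:57233598-57234901 on the plus strand).
AURKB: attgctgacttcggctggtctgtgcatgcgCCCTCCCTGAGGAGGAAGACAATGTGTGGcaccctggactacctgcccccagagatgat
AURKC: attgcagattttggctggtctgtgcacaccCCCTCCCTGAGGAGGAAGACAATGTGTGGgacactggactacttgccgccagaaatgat
The run covers the part of the kinase that holds the activation loop. Of the 1856 stretches of 31 bases in the annotated AURKC transcripts, 0 occurred in transcripts of any other gene. For AURKB 94 of 2508 such stretches (3.75%) were shared with other genes and for AURKA 519 of 3168 (16.4%), but 0 of them with another Aurora kinase. The reads were pairs of 100 bases according to the methods.

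AURKC (ENSG00000105146, chr19:57231009-57235548, plus strand, 7 exons in its canonical transcript) was nearly absent from HAP1 cells and present in all HELLS KO libraries. It had 0, 0 and 1 counts in HAP1 replicates 1 to 3 and 82, 83 and 181 counts in HELLS KO replicates 1 to 3. All HELLS KO libraries were thus far above all HAP1 libraries, and the groups did not overlap. Scaled to library size as CPM (with TMM factors), the mean was 6.29 ± 0.991 in HELLS KO and 0.0139 ± 0.0241 in HAP1 (SD, n = 3 each). A library with 0 counts can still hold up to 3, or 0.211 and 0.218 CPM in HAP1 replicates 1 and 2, so AURKC there was at or under that limit. HAP1 replicate 3 had 1 count, to which that limit does not apply. Per length and depth (FPKM), HELLS KO replicates 1 to 3 had 2.85, 2.91 and 3.77, and HAP1 had 0, 0 and 0.0209. Over the 3 libraries the ratio of HELLS KO to HAP1, scaled by library size, was 338-fold. Since it rests on 346 counts against 1, its exact 95% counting interval ran from 60.3-fold to 13390-fold, which covers counting error only. Both this interval and the limit of 3 counts take each count as independent. Of all counts from 1 to 20, 59.8% were even numbers, and whether counts were independent was not tested. If they were not, the interval is too narrow and the limit too low. The fitted log2 fold change was 7.92 (SE 0.57) and depends on the prior count that the fit adds to values near 0.

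**Figure D1:**
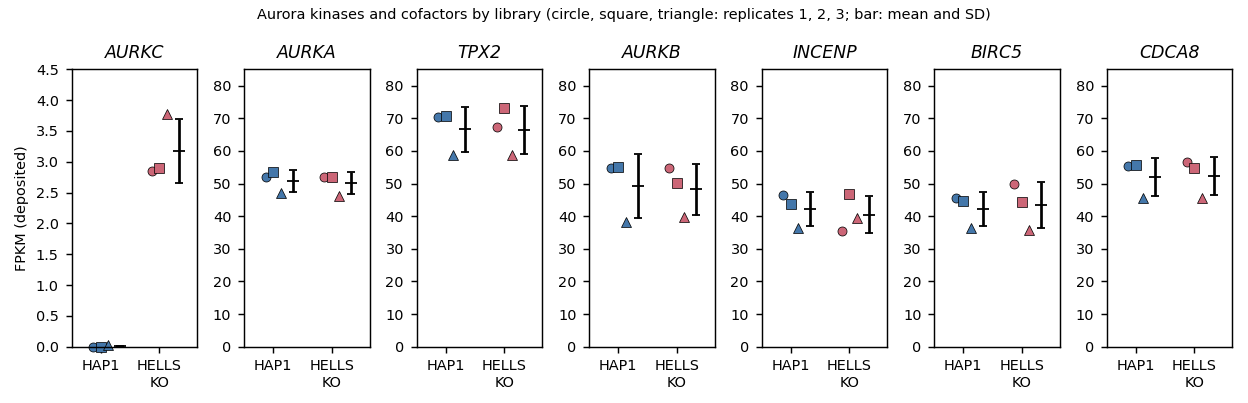
FPKM of the 7 genes, a panel each, in the 3 HAP1 (blue) and 3 HELLS KO (red) libraries, with a point per library (circle, square and triangle for replicates 1, 2 and 3) and a bar for the mean and SD. The AURKC panel has its own, smaller scale. AURKC lies between 0 and 0.0209 in HAP1 and between 2.85 and 3.77 in HELLS KO, while the points of the 2 genotypes overlap for the other 6 genes.

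For Aurora A and its activator the libraries of the genotypes overlapped. AURKA (ENSG00000087586, chr20:56369389-56392337, minus strand) had 2183, 2177 and 3387 counts across the HAP1 libraries against 2256, 2231 and 3337 across the HELLS KO libraries, or 52.0, 53.6 and 47.2 FPKM and 52.2, 52.0 and 46.3 FPKM. Replicate 3 was the lowest library of each genotype per length and depth, and the genotypes overlapped. The log2 fold change of AURKA was -0.02 (SE 0.11, 95% interval -0.27 to 0.24). TPX2, the spindle protein that binds and activates Aurora A (ENSG00000088325, chr20:31739271-31801805, plus strand), had the highest FPKM of the 7 genes. Its counts were 3638, 3537 and 5189 across HAP1 libraries against 3590, 3864 and 5214 across HELLS KO libraries. The mean was 243.2 ± 23.3 CPM in HAP1 and 243.8 ± 28.3 CPM in HELLS KO (SD, n = 3), which gave a log2 fold change of 0.00 (SE 0.13, 95% interval -0.30 to 0.31).

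Aurora B and the other subunits of the chromosomal passenger complex also overlapped between the genotypes. AURKB (ENSG00000178999, chr17:8204733-8210600, minus strand) had 1761, 1714 and 2093 counts across the HAP1 libraries against 1817, 1651 and 2188 across the HELLS KO libraries. In FPKM these were 54.8, 55.1 and 38.1 across HAP1 libraries against 54.9, 50.3 and 39.6 across HELLS KO libraries. Replicate 3 stood below the others in both genotypes, by more than the means of the genotypes differed. The log2 fold change of AURKB was -0.02 (SE 0.19, 95% interval -0.46 to 0.42).

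INCENP, the scaffold (ENSG00000149503, chr11:62123998-62153169, plus strand), had 2989, 2721 and 3991 counts across the HAP1 libraries against 2346, 3059 and 4333 across the HELLS KO libraries. The HELLS KO libraries included both the lowest FPKM (35.5 in replicate 1) and the highest (46.7 in replicate 2) of all 6. INCENP had a log2 fold change of -0.05 (SE 0.15, 95% interval -0.40 to 0.29). Survivin keeps the complex at centromeres by reading a mark on histone H3, and its gene BIRC5 (ENSG00000089685, chr17:78214186-78225636, plus strand) had 2494, 2368 and 3390 counts across the HAP1 libraries against 2813, 2488 and 3359 across the HELLS KO libraries. Its mean was 163.0 ± 18.8 CPM in HAP1 and 168.5 ± 28.1 CPM in HELLS KO (SD, n = 3), a log2 fold change of 0.05 (SE 0.16, 95% interval -0.32 to 0.42). Borealin joins survivin to INCENP. Its gene CDCA8 (ENSG00000134690, chr1:37692481-37709719, plus strand) had 1959, 1906 and 2752 counts across the HAP1 libraries against 2063, 1983 and 2781 across the HELLS KO libraries, and a log2 fold change of 0.01 (SE 0.14, 95% interval -0.30 to 0.33).

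A gene was called changed when its Benjamini-Hochberg adjusted p in edgeR's quasi-likelihood fit was under 0.05 and its log2 fold change was 1 or more in size. By that rule 1.50% of the 17925 genes tested were called higher in HELLS KO (269 genes) and 0.720% lower (129 genes). Of the 7 genes 1, AURKC, was called, which is what it was selected on, so nothing is read from the count. Its libraries did not overlap between the genotypes, as was the case for 10.1% of all genes tested, and those of the other 6 overlapped. Blocking on the replicate number, the share called over all genes was 2.03% higher (363 genes) and 1.49% lower (267 genes). Over 16 alternative settings the log2 fold change of the other 6 genes stayed between -0.18 and 0.17. The widest of their 95% intervals was that of AURKB and the narrowest that of AURKA, both given above. With the replicate block the standard errors of the 6 genes fell from between 0.11 and 0.19 to between 0.07 and 0.10, and their log2 fold changes lay between -0.06 and 0.04.

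The order of the 7 genes per length and depth was nearly the same in both genotypes. By mean FPKM it ran TPX2, CDCA8, AURKA and AURKB in both, then INCENP and BIRC5 in HAP1 and BIRC5 and INCENP in HELLS KO, with AURKC last. TPX2 stood above CDCA8 in all 3 libraries of each genotype without overlap, from 58.7 to 70.7 FPKM in HAP1 against 45.4 to 55.6. The ranges of CDCA8, AURKA, AURKB, INCENP and BIRC5 overlapped with those of their neighbours in that order, and replicate 3 was the lowest library for most of them. Library by library, AURKB was above INCENP in 6 of 6 libraries and above BIRC5 in 6 of 6. CDCA8 was above AURKA in 4 of 6, AURKA above AURKB in 3 of 6 and INCENP above BIRC5 in 4 of 6, so these neighbours had no fixed order. AURKC was separated from the gene above it also in HELLS KO, where its highest library (3.77 FPKM) was far below the lowest of INCENP (35.5 FPKM).

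AURKC remained a small part of the Aurora kinase transcripts in HELLS KO cells. It made up 2.59%, 2.76% and 4.21% of the summed FPKM of the 3 kinases in HELLS KO replicates 1 to 3, and 0%, 0% and 0.0246% in the HAP1 libraries. Set against AURKB, the kinase whose place it can take, AURKC reached 5.19%, 5.78% and 9.52% of the AURKB level in HELLS KO. The share was highest in replicate 3, where the AURKB value was lowest and the AURKC value highest.

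Relative to its depth, replicate 3 was low for the abundant members and high for AURKC. The total counts were 13641237 to 14859360 in replicates 1 and 2 of both genotypes and 24126357 and 24400187 in replicate 3 of HAP1 and HELLS KO. Replicate 3 thus held 1.73 times the counts of the mean of replicates 1 and 2 in HAP1 and 1.68 times in HELLS KO. AURKB counts were only 1.21 and 1.26 times as high there, and those of AURKA 1.55 and 1.49 times, whereas AURKC in HELLS KO was 2.19 times as high. The other members lay between 1.27 times (BIRC5 in HELLS KO) and 1.60 times (INCENP in HELLS KO), all below the ratio of the totals. Over all genes the same ratio was lower where a gene had more than 0.3 counts per base of its length. The median was 1.89 in HAP1 and 1.88 in HELLS KO for 3673 genes with 0.03 to 0.1 counts per base, and 1.92 and 1.83 for 5370 genes with 0.1 to 0.3. It was 1.56 and 1.48 for 4556 genes with 0.3 to 1. It was 1.21 and 1.17 for the 166 genes with at least 1 count per base. Duplicated reads had been removed before counting, and the part of that step in the ratios was not tested. Because replicate 3 is in both genotypes, the values above are given for each library.

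**Figure D2:**
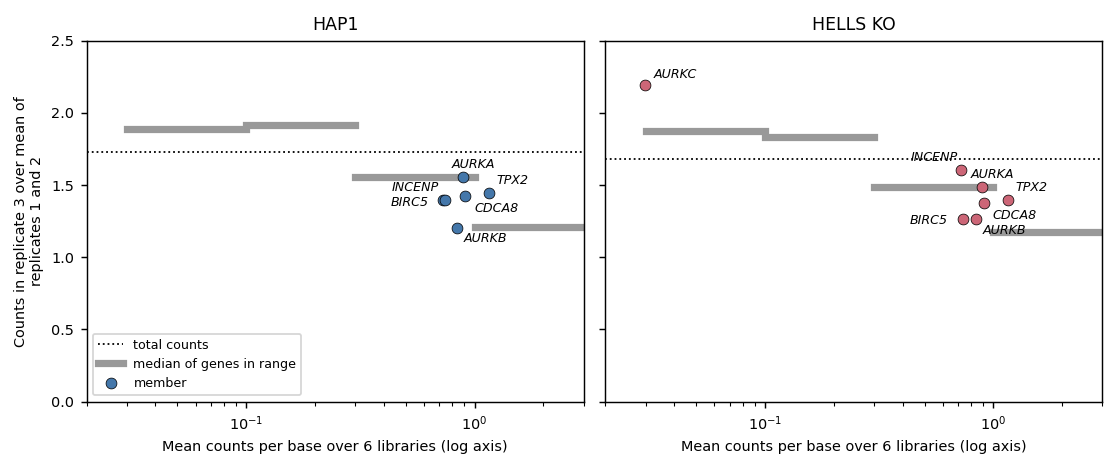
Counts in replicate 3 divided by the mean of replicates 1 and 2, against mean counts per base of gene length (log axis), in a panel for each genotype, with the members as named points, grey bars for the median of all genes in each range and a dotted line for the total counts. The bars lie at 1.83 to 1.92 below 0.3 counts per base and fall to 1.21 (HAP1) and 1.17 (HELLS KO) at 1 or more, and the abundant members lie at 1.21 to 1.60.

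The partners of the kinases were examined through lists of genes with known roles, and 0 of their genes were called. The share called over all genes tested, 1.50% higher and 0.720% lower, is to be read beside each of the 4 lists, which are short. Among 14 partners of Aurora A (cofactors, substrates and regulators such as BORA, PLK1 and TACC3), edgeR called 0 higher and 0 lower, and the median log2 fold change was -0.00. The lowest value was that of NEDD9, a scaffold protein that activates Aurora A, with 1069, 980 and 2742 counts across the HAP1 libraries against 844, 1018 and 2410 across the HELLS KO libraries (log2 fold change -0.19, SE 0.25). The highest was that of AJUBA, a LIM-domain activator of Aurora A, with 1494, 1352 and 3409 counts across the HAP1 libraries against 1782, 1768 and 3239 across the HELLS KO libraries (0.13, SE 0.16). The libraries of the genotypes overlapped for both genes.

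Among 22 partners of Aurora B and C, which include the histone kinases and shugoshins that place the complex and its kinetochore substrates, 0 were called in either direction and the median was -0.01. KLHL13, a substrate adaptor of the ubiquitin ligase that moves Aurora B in mitosis, was lowest, at 96.7 ± 8.49 CPM in HAP1 and 91.0 ± 7.84 CPM in HELLS KO (log2 fold change -0.09, SE 0.13). KNL1, the kinetochore scaffold, was highest. It had 1493, 1185 and 4219 counts across the HAP1 libraries against 1379, 2148 and 4854 across the HELLS KO libraries (0.28, SE 0.34), and replicate 3 was the highest of each genotype. The genotypes did not overlap for 10.1% of all genes tested, and for 1 of the 22 genes of the list. That gene was NDC80, part of the microtubule-binding complex of the kinetochore. It had 111.9 ± 0.797 CPM in HAP1 and 109.5 ± 1.27 CPM in HELLS KO (SD, n = 3) and a log2 fold change of -0.03 (SE 0.10), and it is named because of those values.

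The study reported slower proliferation of HELLS KO than of HAP1 cells. By flow cytometry it also found a slightly larger share of untreated HELLS KO cells in S phase. Growth and cell-cycle phase were not measured in these libraries. Genes that peak in the G2 and M phases with AURKA and AURKB were examined as markers of dividing cells. Of 20 such genes 0 were called in either direction, 14 lay above 0 and the median log2 fold change was 0.01. UBE2C, an enzyme of the anaphase-promoting machinery, was highest (58, 61 and 148 counts in HAP1, 102, 64 and 132 in HELLS KO; 0.20, SE 0.28). CDKN3, a phosphatase that acts on cyclin-dependent kinases, was lowest (-0.05, SE 0.16). The summed CPM of the list was 3523 to 3886 in HAP1 and 3250 to 4150 in HELLS KO, so the HELLS KO range held the HAP1 range.

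The factors that switch on these genes late in the cycle (FOXM1, B-MYB, the MuvB core and NF-Y) were followed through 9 genes, of which 0 were called. NF-Y was represented by NFYA and NFYB only, so it was measured in part. Their median log2 fold change was 0.03, from -0.03 for MYBL2, which encodes B-MYB (SE 0.21), to 0.22 for LIN37, a MuvB subunit (SE 0.26). Over all 65 genes of the 4 lists the median was 0.01, equal to the median of all genes tested (0.01), and 38 lay above 0. At an unadjusted p under 0.05 the lists had 0 genes in edgeR, 0 in DESeq2 and 0 with the replicate block. Of all genes, 6.59% lay there in edgeR (1181 of 17925), 4.64% in DESeq2 (1659 of 35788) and 11.6% with the block (2081 of 17925). DESeq2 called 0 of them as well. A list with 0 calls does not show that its genes were equal in the 2 genotypes.

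**Figure D3:**
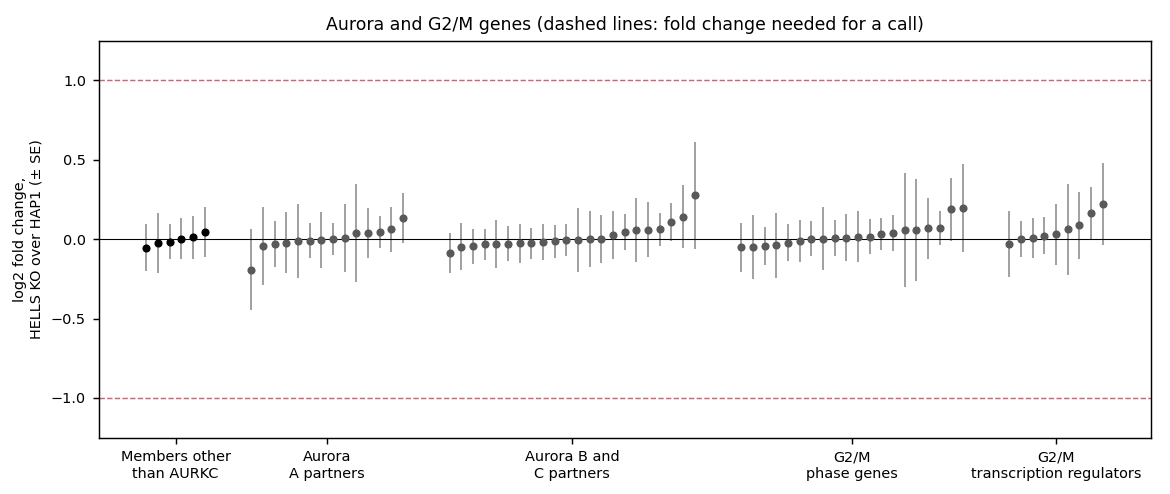
Log2 fold change of HELLS KO against HAP1 with its standard error for the 6 members other than AURKC and for each gene of the 4 lists, with a point per gene and dashed lines at the fold change a call needs. The genes of the lists lie between -0.19 (NEDD9) and 0.28 (KNL1), inside both lines, and AURKC, at 7.92, is off this scale and left out.

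AURKC lies in a dense cluster of zinc-finger genes near the end of chromosome 19, and the nearest tested gene on its 5′ side moved with it. ZNF264 (ENSG00000083844, chr19:57191500-57222846, plus strand), a zinc-finger gene, ends 8163 bases before AURKC starts. It had 4, 4 and 2 counts across the HAP1 libraries against 334, 399 and 739 across the HELLS KO libraries, and all HELLS KO libraries were above all HAP1 libraries. The mean rose from 0.219 ± 0.117 to 27.1 ± 3.77 CPM (SD, n = 3), a log2 fold change of 7.04 (SE 0.38, edgeR adjusted p = 0.00023). The call held under all 15 alternatives in which the gene was tested, and the gene was not tested with a minimum of 10 counts in every library. In HELLS KO the ratio of AURKC to ZNF264 was 1.58, 1.34 and 1.58 in FPKM. A similar ratio in all 3 libraries is not particular to neighbours. MKRN3, on chromosome 15, had 3.08, 2.93 and 4.35 FPKM in HELLS KO, beside 2.85, 2.91 and 3.77 for AURKC. ZNF264 and AURKC are both on the plus strand. Reads that run on from ZNF264 into AURKC were not examined, since the values are counts per gene.

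On the 3′ side of AURKC within 250 kb, 0 of the 16 tested genes were called. Of all genes tested, 1.50% were called higher and 0.720% lower, so 0 of 16 does not set that side apart. The nearest tested gene there, the zinc-finger gene ZNF805, starts 5084 bases after AURKC ends. It had 86, 50 and 254 counts across the HAP1 libraries against 81, 110 and 276 across the HELLS KO libraries (log2 fold change 0.27, SE 0.43, edgeR adjusted p = 1.0), and the genotypes overlapped. The long non-coding RNA ENSG00000268713, which starts 25806 bases after AURKC, had a log2 fold change of 0.12 (SE 0.33, edgeR adjusted p = 1.0). Beyond ZNF264 the next tested gene on the 5′ side was ZNF71, which ends 604528 bases away, and it had 548, 578 and 835 counts across the HAP1 libraries against 744, 645 and 814 across the HELLS KO libraries (0.17, SE 0.19, edgeR adjusted p = 1.0). Within 250 kb of AURKC the table held 33 genes, of which 17 were tested and 9 were at 0 in all libraries. Of the 17, 1 was called higher (ZNF264) and 0 lower. The 16 tested genes on the 3′ side had log2 fold changes from -0.07 (ZNF460-AS1) to 0.39 (ZNF772), with a median of 0.11. Of these 16, 0 were called by edgeR or by DESeq2. At an unadjusted p under 0.05 there were 0 in edgeR, 0 in DESeq2 and 1 with the replicate block, against 6.59%, 4.64% and 11.6% of all genes.

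**Figure D4:**
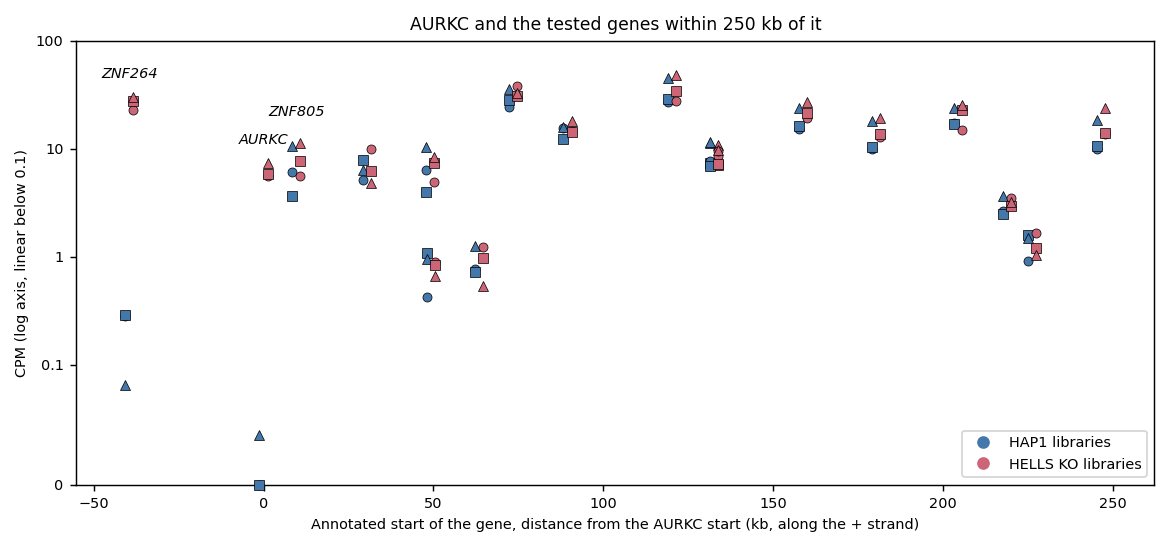
CPM of the tested genes against the distance of each gene's start from the start of AURKC in kb, with a point for each HAP1 (blue) and HELLS KO (red) library, the genotypes set slightly apart (vertical axis log, linear below 0.1 CPM). AURKC and ZNF264 are the genes whose HELLS KO points leave the HAP1 points, and the points of the 16 genes on the other side lie together.

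The starts of these neighbours are shown because ZNF264 and AURKC moved together and ZNF805 was not called. Each sequence covers 250 bases before to 50 bases after the start in the RefSeq promoter table (GRCh38.p14), reads 5′ to 3′ on the gene's strand, and has each CpG in capitals. All 3 are on the plus strand: AURKC at chr19:57230773-57231072, ZNF264 at chr19:57191250-57191549 and ZNF805 at chr19:57240382-57240681.
AURKC: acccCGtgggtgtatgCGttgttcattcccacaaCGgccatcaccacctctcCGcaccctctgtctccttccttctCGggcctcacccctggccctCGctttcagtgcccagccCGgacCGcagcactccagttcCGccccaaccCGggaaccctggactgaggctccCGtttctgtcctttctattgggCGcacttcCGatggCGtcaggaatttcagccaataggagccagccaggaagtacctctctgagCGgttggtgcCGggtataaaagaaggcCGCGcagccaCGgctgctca
ZNF264: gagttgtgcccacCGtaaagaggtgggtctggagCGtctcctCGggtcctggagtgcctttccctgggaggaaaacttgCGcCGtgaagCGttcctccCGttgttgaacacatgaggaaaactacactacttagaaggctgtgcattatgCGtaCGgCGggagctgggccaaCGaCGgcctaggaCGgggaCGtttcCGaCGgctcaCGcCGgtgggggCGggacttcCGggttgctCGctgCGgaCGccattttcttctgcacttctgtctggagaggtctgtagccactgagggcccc
ZNF805: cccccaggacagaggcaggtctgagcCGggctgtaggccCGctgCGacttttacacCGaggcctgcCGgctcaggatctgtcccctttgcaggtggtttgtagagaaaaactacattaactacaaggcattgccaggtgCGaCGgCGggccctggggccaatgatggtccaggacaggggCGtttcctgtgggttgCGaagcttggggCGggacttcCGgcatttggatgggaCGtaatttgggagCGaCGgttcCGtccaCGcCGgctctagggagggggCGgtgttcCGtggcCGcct
The AURKC window held 19 CpG, ZNF264 23 and ZNF805 21, against a median of 14 over 35116 promoters of the same length. In the AURKC window 61.7% of bases were G or C. The number of CpG was lower than in AURKC in 57.1% of all promoters, lower than in ZNF264 in 64.2% and lower than in ZNF805 in 60.5%. The windows of ZNF264 and AURKC and of the uncalled ZNF805 were thus similar in CpG number. DNA methylation was not measured in these libraries. By ELISA, the study found global CpG methylation unchanged by the loss of HELLS in HAP1 cells. A global level does not give the methylation of single promoters, which was not tested.

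Letters bound by the G2/M factors were searched in the promoter windows of the members in the table, which were AURKB, AURKC, INCENP and CDCA8 (4 of 7). The cell cycle homology region (CHR) was taken as TTTGAA or TTCGAA and the CCAAT box, which NF-Y binds, as CCAAT, both on either strand. A CHR was present in 16.4% of the 35116 promoters, a CCAAT box in 34.6%, both in 6.38%, and at least 2 CCAAT boxes in 10.8%. CDCA8 and INCENP are shown because they hold both motifs, in capitals (CDCA8 at chr1:37692266-37692565 and INCENP at chr11:62123761-62124060, plus strand, GRCh38.p14).
CDCA8: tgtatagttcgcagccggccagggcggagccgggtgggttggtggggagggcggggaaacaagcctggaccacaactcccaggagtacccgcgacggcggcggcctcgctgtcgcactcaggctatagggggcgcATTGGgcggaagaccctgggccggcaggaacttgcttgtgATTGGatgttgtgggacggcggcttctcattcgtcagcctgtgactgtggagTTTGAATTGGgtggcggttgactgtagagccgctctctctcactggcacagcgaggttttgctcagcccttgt
INCENP: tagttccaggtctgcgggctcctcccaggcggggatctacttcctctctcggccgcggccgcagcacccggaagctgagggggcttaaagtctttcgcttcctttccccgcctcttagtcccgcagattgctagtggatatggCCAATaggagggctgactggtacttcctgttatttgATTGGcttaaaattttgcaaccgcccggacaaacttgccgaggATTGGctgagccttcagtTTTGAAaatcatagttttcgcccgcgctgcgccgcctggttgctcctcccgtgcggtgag
CDCA8 held 1 CHR, starting 23 bases before the start, and 3 CCAAT boxes, 115, 75 and 18 bases before it. The last of these shares bases with the CHR. INCENP held 1 CHR 10 bases before the start and 3 CCAAT boxes 107, 71 and 28 bases before it. AURKB held 1 CCAAT box and 0 CHR in each of its 2 windows (chr17:8210176-8210475 and chr17:8210200-8210499), which overlap and hold the same box. Both windows lie inside the annotated span of AURKB, which ends at 8210600, so bases before that annotated start were not searched. AURKC held 2 CCAAT boxes, 66 and 31 bases before the start, and 0 CHR. For AURKB and AURKC the 0 says only that the CHR letters are not in the windows searched.

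The genes whose pattern over the 6 libraries was most like that of AURKC were also near 0 in HAP1. By Pearson's correlation of log2 CPM over 6 libraries, the 5 closest of 15234 genes were ZNF285, MKRN3, MAGEA11, ZNF430 and NDN. Their r was 0.99882 to 0.99998, and 79 genes had an r of at least 0.99. With 2 groups of libraries so far apart, r mostly repeats the difference between the genotypes, and the libraries also share their depth. ZNF285, a zinc-finger gene elsewhere on chromosome 19, had 0, 0 and 1 counts across the HAP1 libraries against 97, 100 and 225 across the HELLS KO libraries. MKRN3 and NDN are imprinted genes of chromosome 15. MKRN3 had 0, 0 and 2 counts across the HAP1 libraries against 261, 246 and 614 across the HELLS KO libraries, and NDN had 0, 0 and 2 against 706, 576 and 1095. MAGEA11, a cancer-testis gene of the X chromosome, had 0, 0 and 2 counts against 438, 350 and 853, and the zinc-finger gene ZNF430 had 2, 3 and 6 against 287, 294 and 772.

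Of the germ-cell markers that were tested, 0 were called, beside 1.50% of all genes called higher and 0.720% lower. Most of the listed markers were not tested, so the 0 does not describe them. Of 10 spermatocyte markers 3 were tested and 0 called by edgeR or DESeq2, and their summed level was 33.9 to 53.2 CPM in HAP1 and 24.9 to 52.8 CPM in HELLS KO. Most of that was MEIOC, a meiotic RNA regulator, with 450, 368 and 1044 counts across the HAP1 libraries against 245, 522 and 1063 across the HELLS KO libraries (log2 fold change -0.07, SE 0.35). Of 10 spermatid markers 5 were at 0 in all libraries, including the protamines PRM1 and PRM2, and 9 had at most 3 counts in any library. Their sum was 1.34 to 3.21 CPM in HAP1 and 2.17 to 2.68 CPM in HELLS KO, nearly all of it ACRV1, an acrosomal protein gene (0.31, SE 0.44). Of 10 oocyte markers 1, the growth factor gene GDF9, was tested (-0.33, SE 0.38). ZP2, NOBOX and H1-8 were at 0 in all libraries, and the sum of the list was 3.35 to 5.28 CPM in HAP1 and 2.41 to 4.48 CPM in HELLS KO. At an unadjusted p under 0.05, edgeR had 0 genes of these 3 lists and DESeq2 2, both oocyte markers that edgeR's filter had removed. Of all genes, 6.59% lay there in edgeR and 4.64% in DESeq2. NLRP5 and TUBB8, oocyte markers that were not tested, moved in opposite directions and are given under the other observations. The spermatocyte marker MEIOB, also not tested, had 1, 1 and 9 counts across the HAP1 libraries against 0, 0 and 0 across the HELLS KO libraries.

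The line's label gives chronic myelogenous leukemia, but markers of blood cells were largely absent. PTPRC, the gene of the pan-leukocyte marker CD45, had 0, 0 and 2 counts in each genotype, SPI1 was at 0 in all libraries, and 5 of 12 myeloid markers had at most 3 counts in any library. The summed level of the list was 21.5 to 40.7 CPM in HAP1 and 3.92 to 7.52 CPM in HELLS KO, and most of it was KIT, a receptor of blood and germ-cell precursors. KIT had 319, 270 and 933 counts across the HAP1 libraries against 32, 40 and 138 across the HELLS KO libraries (log2 fold change -2.90, SE 0.43, edgeR adjusted p = 0.015). The call was lost without HELLS KO replicate 1 (edgeR adjusted p = 0.069) or replicate 2 (0.11) and with a minimum of 10 counts in every library (0.053). KIT moved opposite to AURKC, and any part of it in the Aurora values was not tested. HELLS itself had 1444, 1488 and 3671 counts across the HAP1 libraries against 1410, 1375 and 2802 across the HELLS KO libraries (log2 fold change -0.24, SE 0.18). The labelled knockout is thus not visible in its RNA level, and counts per gene do not show a 1-base insertion. The study reported complete loss of the HELLS protein in these cells.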

How the data were processed

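Bulk RNA-seq of 3 HAP1 and 3 HELLS KO libraries was analysed from the deposited tables. Libraries had been made with a directional kit. The authors aligned the reads with STAR 2.7.3a to GRCh38, dropped duplicates and alignments under mapping quality 20, and deposited raw counts per gene from featureCounts 2.0.6. The submitters' processing notes name hg38 and GRCh38.p2. The authors also deposited FPKM for 24956 genes, and 100% of these values were recomputed from the counts within 0.1%. Which annotation was counted, and whether strand was used, is not given in the sources used here.

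Genotypes and replicate numbers came from the sample records, and all columns matched a sample. Of the identifiers, 56321 matched GENCODE release 44, which supplied symbols and hg38 coordinates. Total counts were 13641237 to 24400187, so that 3 counts correspond to 0.123 to 0.218 CPM. P-values measure the spread between these libraries, since the labels do not say that they came from separate cultures.

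Counts were fitted with edgeR 4.0.16 in R 4.3.3 (filterByExpr, TMM, glmQLFit, glmQLFTest, Benjamini-Hochberg adjustment over 17925 genes) with no covariate. The common biological coefficient of variation was 0.242. On simulated counts with 200 genes changed at an absolute log2 fold change of 2, edgeR recovered 97.5% of those tested, DESeq2 96% and limma 90.5%. They also called 17, 10 and 11 unchanged genes. Every simulated gene had the common dispersion and no batch effect, and limma was run there on log2(CPM + 1). These rates thus check the code and do not give the power for the lists. The SE of a fold change was computed from the F statistic. Alternatives were DESeq2 1.42.0, its size factors, upper-quartile scaling, no filter, at least 10 counts in every library, a block on the replicate number, a batch term as labelled, replicates 1 and 2 only, each library left out, and limma 3.58.1 on log2(FPKM + 1) and log2(FPKM + 0.1).

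Same-numbered libraries of the genotypes deviated together from their group means (correlations across genes of 0.416, 0.197 and 0.778). The numbers were treated as pairing the libraries only in the replicate block, and the main fit had no such term. HAP1 replicate 2 correlated more with HELLS KO replicate 1 (0.591), and HAP1 replicate 1 correlated with HELLS KO replicate 2 at 0.33. The correlations thus set replicate 3 apart and do not show that replicates 1 and 2 are paired by number.

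The members, gene lists and tests were chosen with earlier results of these data known. Genes named were the members, HELLS, called genes and the extremes of each Aurora and G2/M list, the 2 nearest tested genes on each side of AURKC and called genes within 250 kb, the 5 closest correlates, and the most counted gene of each marker list. Other genes were named after their values were seen. Coding sequences came from GENCODE release 44 and were aligned with Biopython 1.88, and promoters came from RefSeq (GRCh38.p14).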

Additional observations from a re-analysis of the deposited data

How the results depend on the processing

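The AURKC log2 fold change of 7.92 was 8.20 in DESeq2, 9.34 with replicates 1 and 2 only, 2.05 on log2(FPKM + 1) and 4.93 on log2(FPKM + 0.1), scales that understate changes of low genes. It was 7.58 to 9.68 with 1 library left out, and it was not tested with a minimum of 10 counts in every library, where the calls within 250 kb also went from 1 to 0 because ZNF264 was not tested. Genes called higher (269) and lower (129) were 426 and 244 in DESeq2, 415 and 200 with no filter, 29 and 48 with the minimum of 10 counts, and 146 and 52 on log2(FPKM + 1). Genes called lower were 285 with a batch term and 219 with replicates 1 and 2 only. With 1 library left out the counts were 112 to 273 higher and 40 to 176 lower. They moved most without HELLS KO replicate 2 (112 and 40), and also without HELLS KO replicate 1 (160 and 62), HAP1 replicate 1 (173 and 69) and HAP1 replicate 2 (84 lower). Treating the replicate numbers as pairing the libraries, the replicate block gave 267 genes lower against 129. It left the 4 Aurora and G2/M lists at 0 calls and changed no other call described here. The cause of these shifts was not tested. The 4 Aurora and G2/M lists had 0 calls under every alternative, and of the values recomputed under an alternative 26 moved (a fold change by more than the SD between libraries, a count by more than 1.5 times) and 197 did not. No called value changed sign. Of 96 recomputed log2 fold changes of the other 6 members, none of them called, 22 differed in sign from the value reported, the largest of these 0.0985 in size.

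Depth limits AURKC in HAP1, whose level under 3 counts cannot be given. Replicate 3 of both genotypes is in a labelled batch. The SEs of the other 6 members, 0.11 to 0.19 without a term for it, were 0.07 to 0.10 with the replicate block and 0.05 to 0.11 with a batch term.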

Other observations

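Among the oocyte markers, NLRP5, a maternal-effect gene, had 0, 0 and 0 counts across the HAP1 libraries against 4, 6 and 8 across the HELLS KO libraries, below the filter of the edgeR fit. TUBB8, an oocyte tubulin gene, had 32, 8 and 16 counts across the HAP1 libraries against 6, 4 and 4 across the HELLS KO libraries and was removed by the same filter. Both were named after their values were seen. Of all counts from 1 to 20 in the table, 59.8% were even numbers.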
